A study of Hormonema carpetanum with 4 samples.

Results

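The genes described here encode the redox defence of the fungus Hormonema carpetanum, the producer of the antifungal compound enfumafungin. They are 64 of the 10951 genes in the deposited table, chosen because their best Swiss-Prot hit is named as a superoxide dismutase, peroxiredoxin, peroxidase, glutathione enzyme, thioredoxin or glutaredoxin. Transporters, and a pair of catalase genes (gene05877 and gene00218), were left out. RNA was sequenced from mycelium of the mutant ENF-5-29 at day 18 of fermentation at 19 °C, the same mutant at day 18 at 25 °C, the same mutant at day 14, and the wild type ATCC74360 at day 14. The day 14 titles give no temperature. The extraction protocol names 18 days for the strains, and the days used here are those of the titles. Each group had 1 library, the mutant is a single strain whose mutations are not given in the labels, and no difference below has a replicate check or a p-value.

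Superoxide leaks from the respiratory chain and is made by several oxidases. Superoxide dismutases turn it into hydrogen peroxide, which peroxidases, peroxiredoxins and catalases then remove. Peroxiredoxins and many peroxidases are recharged by thioredoxin or glutathione, small thiol carriers that are themselves reduced by their reductases with electrons from NADPH. Glutathione also carries formaldehyde and methylglyoxal to the enzymes that clear them, and glutathione S-transferases attach it to foreign or reactive compounds.

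Values are TPM, a share of all transcripts corrected for gene length, so levels of different genes can be set side by side. Ratios are log2 ratios of TPM plus 1, and a gene was called higher or lower when it reached 1 TPM in either library and differed at least 2-fold on that scale. Where 3 values of the mutant libraries stand together, they are those of day 18 at 19 °C, day 18 at 25 °C and day 14, in that order. That scale understates the differences of low genes. Where a fold is given, it is the quotient of the TPM values themselves. Read depth cannot be recovered from this unit, and with it the counting error is unknown. In bulk mycelium, fewer cells of a kind and less RNA per cell cannot be told apart. Of the 64 genes, 61 reached 1 TPM in at least 1 library, 51 reached 10 TPM and 37 reached 100 TPM. The libraries held 8569 to 8942 genes at 1 TPM or above, and their 20 highest genes took 16.1%, 14.1% and 15.9% of TPM in the mutant at day 18 and 19 °C, at day 18 and 25 °C and at day 14, against 23.5% in the wild type.

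The names were checked against the other annotations. For 6 of the 64 genes, the domains or the KEGG orthology point to another protein: elongation factor 1-gamma for gene06245, the oligosaccharyl transferase subunit WBP1 for gene03534, the origin recognition subunit ORC2 for gene05363, the splicing factor DIB1 for gene06888, a plain hydrolase fold for the haloperoxidase hit gene00610, and a formaldehyde dehydrogenase that by its own name does not use glutathione for gene04230. They were kept, and leaving them out is among the processing alternatives. The catalase-related peroxidase gene06597, not among these 6, carries a catalase domain and a catalase orthology, and was counted with the peroxidases. For the rest, too, a name is that of the best hit, often in a distant species, and the function itself was not measured. As a sign of other cell types, a list of genes named for conidia, spores or sporulation, many of them by yeast hits, was summed. Of its 11 genes, 9 reached 1 TPM in the day 14 pair, where 5 were higher and 1 was lower in the mutant. That is 55.6% and 11.1%, beside 40.7% and 14% of all tested genes. After the rescaling described below 2 were higher and 2 lower, beside 2281 higher and 2395 lower of all 9272 tested genes. Their summed level was 1022, 851 and 945 TPM in the mutant at day 18 and 19 °C, at day 18 and 25 °C and at day 14, against 136 TPM in the wild type. The spore wall gene DIT1 (gene05643) had the highest strain ratio, at 37.9, 80.8 and 155 TPM in the mutant libraries and 0.35 TPM in the wild type. In the mutant most of the sum came from conidiation-specific protein 10 (gene06873), and in the wild type from the protein kinase gene pit1 (gene10877), at 90.6 TPM, while the conidial regulator wetA (gene02208) was listed at 0 in the mutant at 19 °C and in the wild type and stood at 0.06 and 0.11 TPM in the other libraries. The part of these genes in the differences below was not tested.

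**Figure D1:**
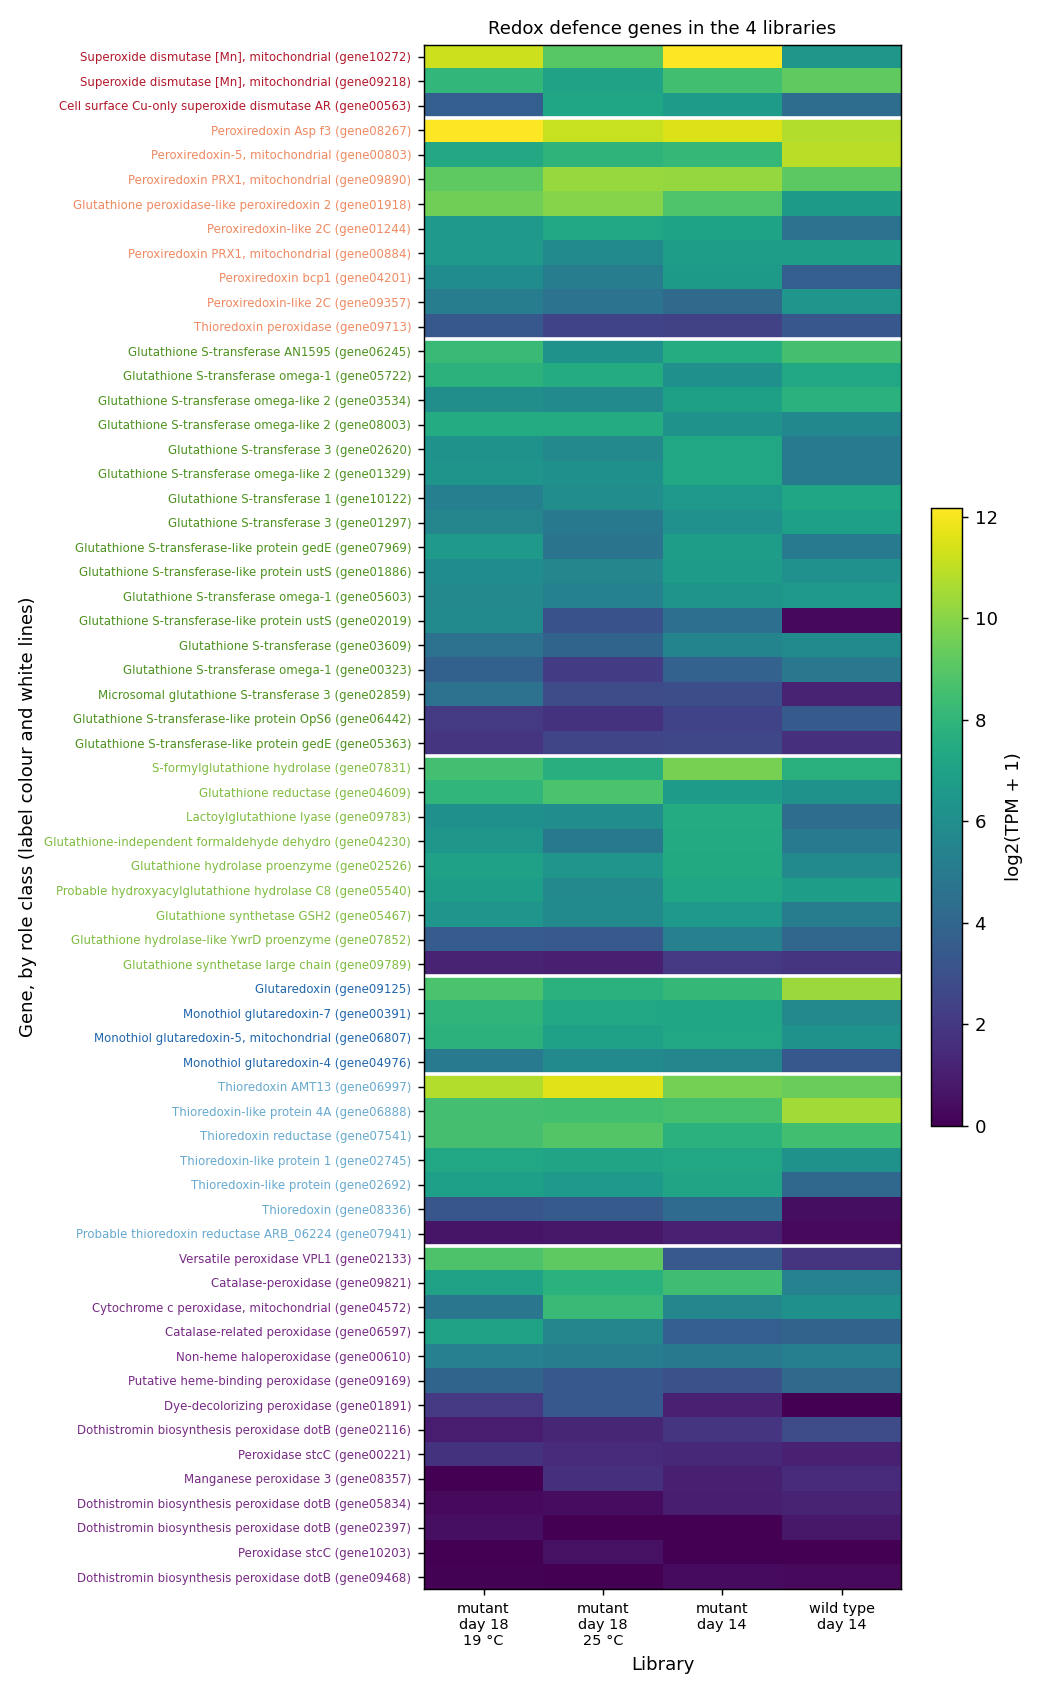
Level of 63 of the 64 genes (rows, grouped by role class with white lines between classes) in the 4 libraries (columns), as log2 of TPM plus 1 by colour. The brightest cells are the manganese superoxide dismutase gene10272 in the mutant at day 14 (4608 TPM) and the peroxiredoxin gene08267 in the mutant at day 18 and 19 °C (4558 TPM), and 3 of the peroxidases at the foot stay under 1 TPM throughout.

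As a sum, the redox defence genes took 1.59%, 1.36% and 1.61% of all TPM in the mutant at day 18 and 19 °C, at day 18 and 25 °C and at day 14, against 1.14% in the wild type. The sums were 15922, 13572 and 16119 TPM in these mutant libraries and 11364 TPM in the wild type. A large part of the excess at day 14 came from 1 gene, since without gene10272 the sums at day 14 were 11511 TPM in the mutant and 11277 TPM in the wild type. The make-up of the sum differed more than its size. Superoxide dismutases made up 5066 TPM in the mutant at day 14 and 691 TPM in the wild type, whereas glutaredoxins made up 612 TPM in that mutant library and 1424 TPM in the wild type. Thioredoxins were highest in the mutant at day 18 and 25 °C, with 4258 TPM, against 2792 TPM at 19 °C. The class of heme and other peroxidases stood at 771, 1195 and 455 TPM in the mutant libraries and at 191 TPM in the wild type.

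**Figure D2:**
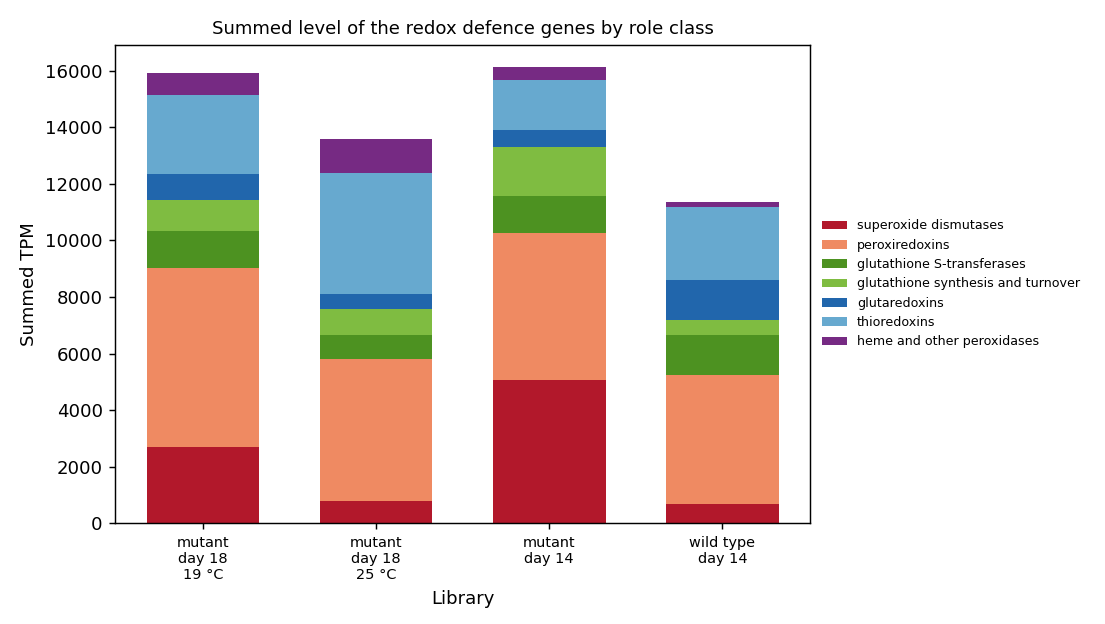
Summed TPM as deposited (vertical axis, from 0) of the 64 genes in each library, split by role class. The mutant libraries reach between 13572 and 16119 TPM and the wild type 11364 TPM, with the largest block of superoxide dismutases (5066 TPM) in the mutant at day 14.

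The mutant was first set against the wild type at day 14, which addresses how the strains differ. Neither day 14 library has a stated temperature, so strain and a possible difference in temperature cannot be told apart. In these libraries a mitochondrial manganese superoxide dismutase (gene10272) was 52.9-fold higher in the mutant, and glyoxalase I, a peroxiredoxin of the bcp type, a catalase-peroxidase and a thioredoxin-like gene were each 8.20-fold to 9.25-fold higher. The most abundant glutaredoxin and a peroxiredoxin-5 were 4.76-fold and 7.0-fold lower in the mutant. Of 61 tested genes, 27 were higher and 8 lower in the mutant, or 44.3% and 13.1%, while among all 9272 genes tested 40.7% were higher and 14% were lower. The shares of the redox genes therefore lay near those of all genes, and their median log2 ratio was 0.58 against 0.64 for all tested genes. Some genes of the same name had ratios of opposite sign, as described by class below.

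Scaling bears on these counts. A rescaling that sets the median ratio of commonly expressed genes (1 TPM in each library) to equality moved the median of all tested genes by -0.72 in this comparison, and then 17 of the redox genes were higher and 19 lower in the mutant. Higher genes made up 77.1% of the redox calls as deposited and 47.2% after that rescaling, against 74.4% and 48.8% for all genes. The same rescaling moved the median of all genes by 0.18 between the temperatures, by 0.34 for day 18 at 25 °C over day 14 and by 0.51 for day 18 at 19 °C over day 14.

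**Figure D3:**
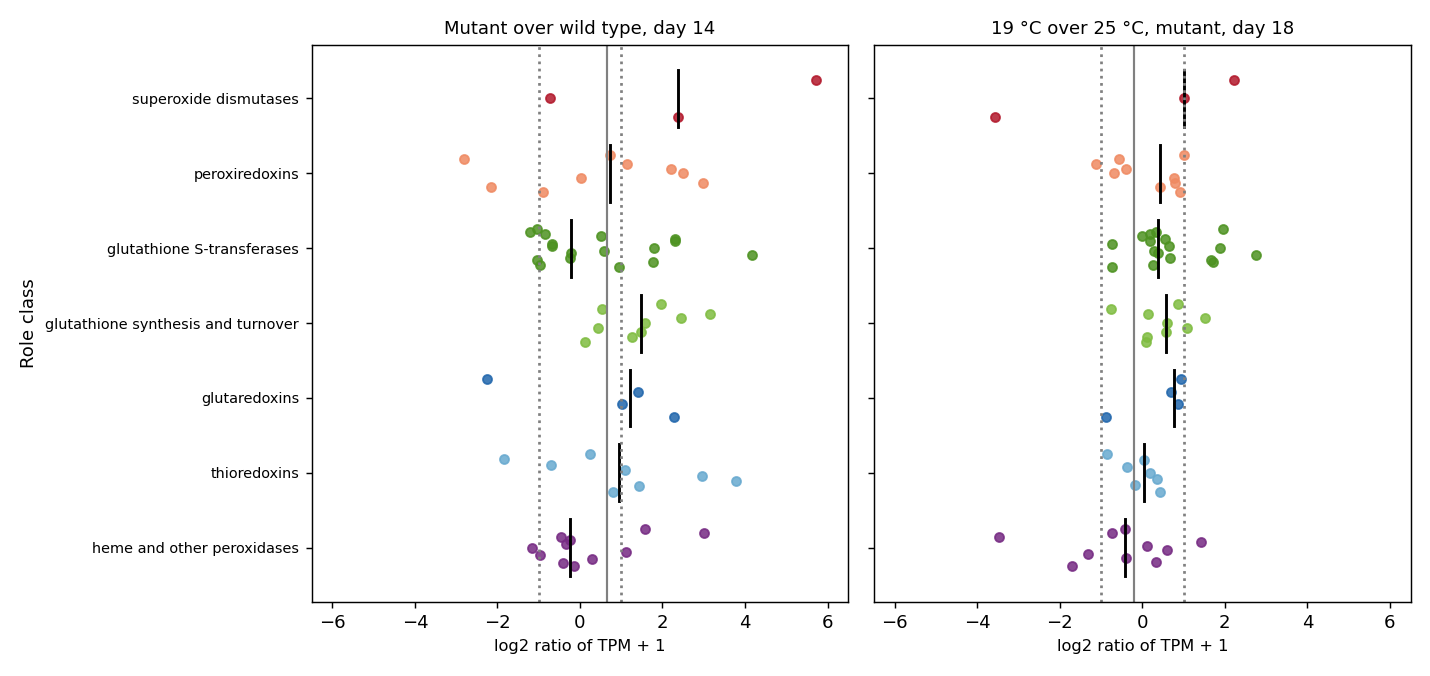
Log2 ratio of TPM plus 1 of each tested gene (points) by role class, for the mutant over the wild type at day 14 (left) and for 19 °C over 25 °C in the mutant at day 18 (right). Black bars are class medians, the solid grey line is the median of all tested genes (0.64 left, -0.21 right), and dotted lines mark 2-fold; the highest point on the left is gene10272 at 5.71 and the lowest on the right is gene00563 at -3.58.

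Superoxide dismutases, which stand at the head of the pathway, were 3. The gene10272 enzyme, best matched to the manganese enzyme of Neurospora crassa, stood at 2413 TPM in the mutant at day 18 and 19 °C, at 516 TPM in the mutant at day 18 and 25 °C, at 4608 TPM in the mutant at day 14 and at 87.0 TPM in the wild type. It was the 16th highest of all genes in the mutant at day 14 and ranked 1302 in the wild type. Its paralogue by name, gene09218, best matched to the manganese enzyme of Saccharomyces cerevisiae, stood at 262, 130 and 353 TPM in these mutant libraries and at 585 TPM in the wild type. The order of this pair was therefore turned round. The TPM of gene10272 was 9.21, 3.97 and 13.1 times that of gene09218 in the mutant libraries, whereas in the wild type gene09218 was 6.72 times as high as gene10272. The strain ratio of gene10272 was 5.71 on the log2 scale, and 4.94 after rescaling by the median ratio. For gene09218 it was -0.73, within the 2-fold limit, and -1.50 after rescaling. As a pair the manganese enzymes held 4961 TPM in the mutant at day 14, against 672 TPM in the wild type. Their sum in the mutant at day 18 was 2675 TPM at 19 °C, against 645 TPM at 25 °C.

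The third superoxide dismutase, gene00563, was best matched to a cell surface enzyme of Arthroderma benhamiae that uses copper alone, a kind of enzyme that acts outside the cell. It stood at 11.4 TPM in the mutant at day 18 and 19 °C, at 147 TPM at day 18 and 25 °C, at 105 TPM at day 14, and at 19.5 TPM in the wild type. It was thus 5.41-fold higher in the mutant than in the wild type at day 14. Its pattern over the libraries was not that of gene10272: at 19 °C the manganese gene was high and the copper gene at its lowest.

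**Figure D4:**
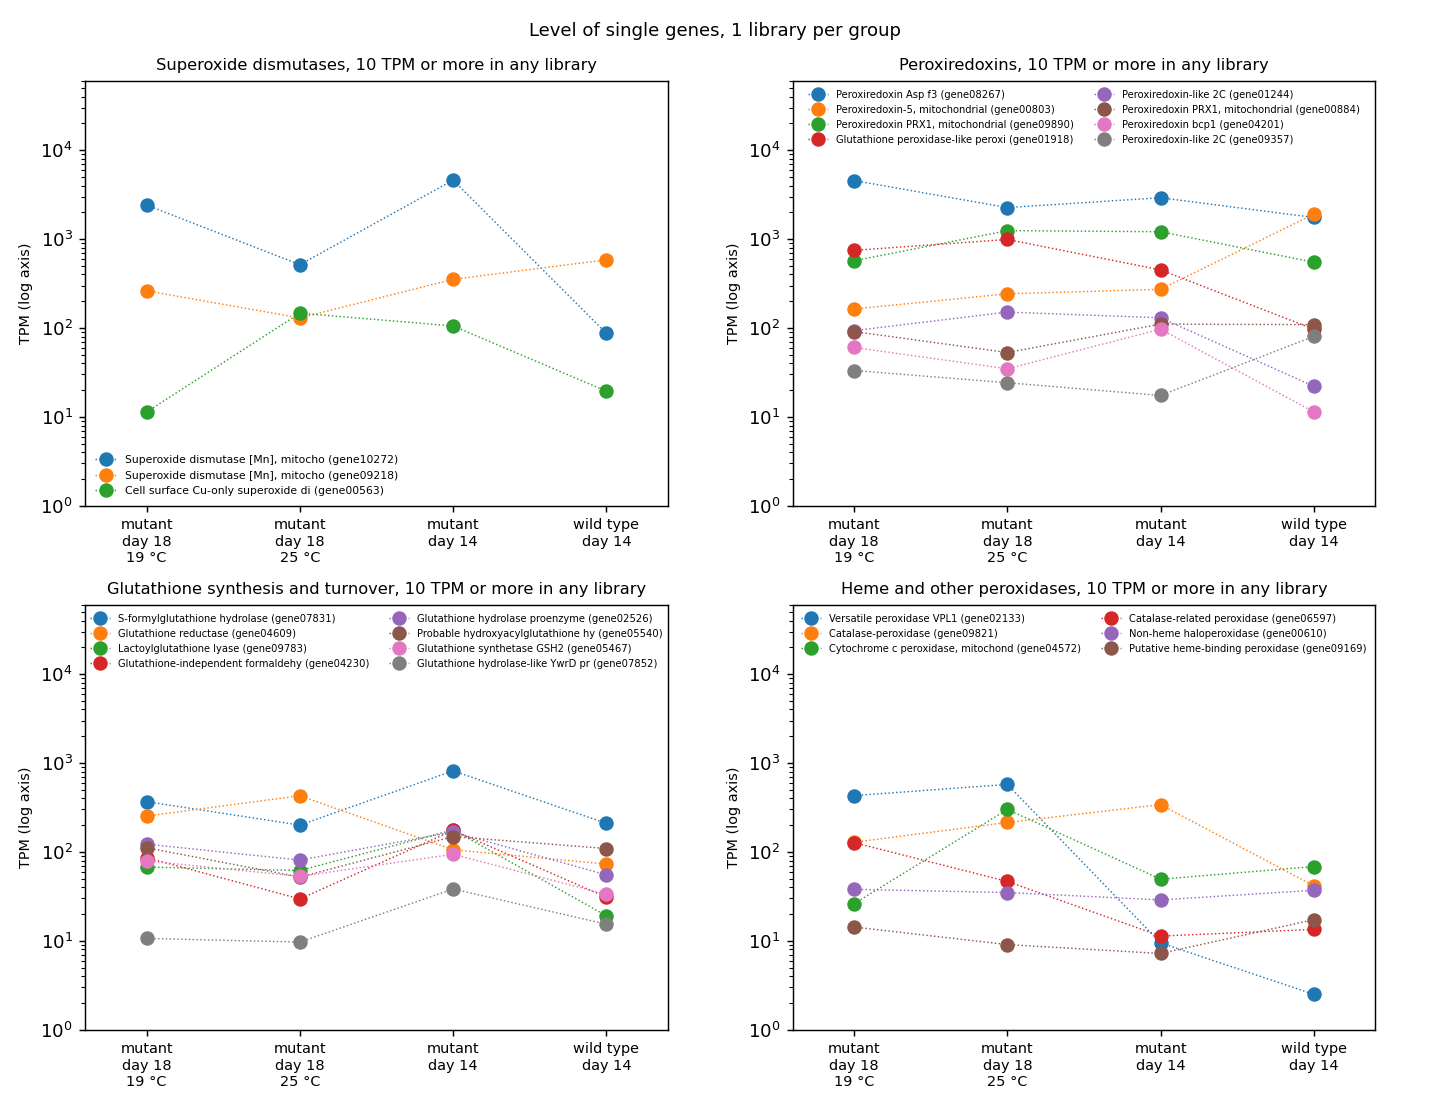
TPM on a log axis of superoxide dismutases, peroxiredoxins, genes of glutathione synthesis and turnover, and heme and other peroxidases that reached 10 TPM in any library, by library, with 1 point per gene and library and dotted lines joining the values of a gene. The manganese superoxide dismutases cross between the mutant at day 14 (4608 and 353 TPM) and the wild type (87.0 and 585 TPM), and versatile peroxidase VPL1 is at 430 and 574 TPM in the day 18 libraries and under 10 TPM at day 14.

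Peroxiredoxins, which reduce hydrogen peroxide and organic peroxides with a reactive cysteine, were 9 genes. As deposited 4 were higher and 2 lower in the mutant at day 14, or 44.4% and 22.2%, beside 40.7% and 14% of all tested genes. After rescaling by the median ratio 3 were higher and 3 lower, beside 2281 higher and 2395 lower of all 9272 tested genes. The most abundant peroxiredoxin was gene08267, best matched to Asp f3, known as an allergen of Aspergillus fumigatus. It stood at 4558, 2263 and 2920 TPM in the mutant at day 18 and 19 °C, at day 18 and 25 °C and at day 14, and at 1752 TPM in the wild type, and ranked between 27 and 98 among all genes. Its strain ratio of 0.74 lay within 2-fold and was -0.04 after rescaling. In the wild type it was matched in level by gene00803, a gene named for peroxiredoxin-5 of mouse mitochondria, at 1908 TPM. That gene stood at 164, 242 and 273 TPM in the mutant libraries, a strain ratio of -2.80 at day 14. The TPM of gene08267 over that of gene00803 was 27.9, 9.34 and 10.7 in the mutant libraries and 0.918 in the wild type.

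The next peroxiredoxins by level were gene09890, a PRX1-type enzyme of mitochondria, and gene01918, named for a glutathione peroxidase-like enzyme of yeast. The PRX1 gene stood at 571, 1246 and 1211 TPM in the mutant libraries and at 549.6 TPM in the wild type, so that its values fell into a high pair (mutant at 25 °C and at day 14) and a low pair. Its strain ratio of 1.14 was 0.36 after rescaling. A second gene with the same best hit, gene00884, stood at 91.3, 53.0 and 111 TPM in the mutant libraries and at 109 TPM in the wild type. The glutathione peroxidase-like gene01918 stood at 748, 991 and 451 TPM in the mutant libraries, all above the 96.9 TPM of the wild type, and its strain ratio was 2.21. A bcp-type peroxiredoxin, gene04201, stood at 60.5, 34.8 and 97.1 TPM in the mutant libraries and at 11.4 TPM in the wild type.

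The pair named peroxiredoxin-like 2C was called in opposite directions. Of this pair, gene01244 stood at 93.5, 151 and 130 TPM in the mutant libraries and at 22.1 TPM in the wild type, whereas gene09357 stood at 33.3, 24.2 and 17.4 TPM in the mutant libraries and at 80.4 TPM in the wild type. Their strain ratios were 2.51 and -2.14. The thioredoxin peroxidase gene09713 was low throughout, at 9.22, 4.40 and 4.31 TPM in the mutant libraries and 8.95 TPM in the wild type.

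Thioredoxins and their reductase supply electrons to these peroxiredoxins. The chief thioredoxin was gene06997, named for AMT13 of Alternaria alternata, with 1746 TPM in the mutant at day 18 and 19 °C, 3161 TPM at day 18 and 25 °C, 799 TPM at day 14 and 677 TPM in the wild type. Thioredoxin reductase (gene07541) stood at 379, 489 and 220 TPM in the mutant libraries and at 360 TPM in the wild type. At day 14 neither passed the 2-fold limit between the strains, with log2 ratios of 0.24 and -0.71, though the reductase reached -1.48 after rescaling. Lesser members differed more. A thioredoxin-like gene best matched to Fusarium culmorum (gene02692) stood at 116, 91.0 and 135 TPM in the mutant libraries and at 16.5 TPM in the wild type, and a thioredoxin gene best matched to a bacterium (gene08336) at 8.63, 9.81 and 17.9 TPM against 0.37 TPM in the wild type. The gene named thioredoxin-like 4A (gene06888), whose human namesake is a part of the spliceosome, stood at 374, 361 and 400.02 TPM in the mutant libraries and at 1427 TPM in the wild type. Of the 8 genes of this class, 4 were higher and 1 lower in the mutant at day 14, or 50% and 12.5%, beside 40.7% and 14% of all tested genes. After rescaling 2 were higher and 2 lower, beside 2281 higher and 2395 lower of all 9272 tested genes.

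Glutaredoxins pass electrons from glutathione to proteins, and monothiol members handle iron-sulfur clusters in yeast. The most abundant of the 4, gene09125, stood at 417, 217 and 271 TPM in the mutant libraries, all well under the 1288 TPM of the wild type. All 3 monothiol genes went the other way as deposited. Glutaredoxin-7 (gene00391), of the secretory pathway in yeast, stood at 249, 153 and 142 TPM in the mutant libraries and 52.7 TPM in the wild type. The mitochondrial glutaredoxin-5 (gene06807) stood at 228, 124 and 152 TPM in the mutant libraries and 74.1 TPM in the wild type. Glutaredoxin-4 (gene04976), a regulator of iron use in yeast, stood at 29.9, 55.7 and 47.5 TPM in the mutant libraries and 9.07 TPM in the wild type. Rescaling by the median ratio left glutaredoxin-4 as the only monothiol gene past 2-fold, at 1.53, with glutaredoxin-7 at 0.64 and glutaredoxin-5 at 0.26.

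Of the 9 genes of glutathione synthesis and turnover, 6 were higher and 0 lower in the mutant at day 14. That is 66.7% higher, beside 40.7% higher and 14% lower of all tested genes. After rescaling 3 of the 9 were higher and 0 lower, beside 2281 higher and 2395 lower of all 9272 tested genes. Glyoxalase I (lactoylglutathione lyase, gene09783), which takes up methylglyoxal bound to glutathione, stood at 67.5, 61.8 and 177 TPM in the mutant libraries and at 19.1 TPM in the wild type. The enzyme of the next step, hydroxyacylglutathione hydrolase (gene05540), stood at 111, 52.1 and 149 TPM in the mutant libraries and at 109 TPM in the wild type. S-formylglutathione hydrolase (gene07831), which completes the glutathione route of formaldehyde oxidation, had the highest value of the class, at 367, 200.3 and 816 TPM in the mutant libraries and 209 TPM in the wild type. The formaldehyde dehydrogenase gene04230 stood at 86.1, 29.6 and 174 TPM in the mutant libraries and at 30.9 TPM in the wild type. Their strain ratios at day 14 were 3.14 for glyoxalase I, 1.96 for the formylglutathione hydrolase and 2.46 for the dehydrogenase, and each stayed past 2-fold after rescaling.

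Glutathione synthetase GSH2 (gene05467), the last enzyme of glutathione synthesis, stood at 79.2, 53.04 and 94.1 TPM in the mutant libraries and 33.2 TPM in the wild type, whereas a further synthetase gene (gene09789) did not exceed 3.03 TPM. Glutathione hydrolase (gene02526), which breaks glutathione down outside the cell, stood at 122, 80.9 and 167 TPM in the mutant libraries and 55.1 TPM in the wild type, and its YwrD-like relative (gene07852) at 10.6, 9.68 and 38.3 TPM against 15.4 TPM in the wild type. Glutathione reductase (gene04609), which restores the reduced form, had another pattern. It stood at 253, 428 and 106 TPM in the mutant libraries and at 73.0 TPM in the wild type, highest at 25 °C, and its strain ratio of 0.53 lay within 2-fold.

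Glutathione S-transferases were the largest class, with 17 genes, of which 5 were higher and 3 lower in the mutant at day 14. That is 29.4% and 17.6%, beside 40.7% and 14% of all tested genes. After rescaling 5 were higher and 8 lower, beside 2281 higher and 2395 lower of all 9272 tested genes. The extreme member was gene02019, named for the ustS gene of an Aspergillus flavus toxin cluster, at 55.1, 7.35 and 20.9 TPM in the mutant libraries and at 0.21 TPM in the wild type, a strain ratio of 4.18. Next came gene02620, at 75.6, 51.6 and 158 TPM in the mutant libraries and 31.1 TPM in the wild type, and gene01329, at 78.7, 69.0 and 151 TPM against 29.9 TPM in the wild type. The genes gene08003, gene10122 and gene03534 lay within 2-fold between the strains at day 14. The omega-like gene08003 stood at 177, 178 and 72.6 TPM in the mutant libraries and at 50.7 TPM in the wild type, high at day 18. The gene10122 stood at 37.2, 62.0 and 89.8 TPM in the mutant libraries and at 144 TPM in the wild type, and gene03534, annotated elsewhere as WBP1, at 63.2, 55.5 and 122 TPM against 219.6 TPM in the wild type, so in these the wild type was highest. Among the lower genes, the omega-type gene05722 stood at 225, 178 and 67.1 TPM in the mutant libraries and at 158 TPM in the wild type, so that it was lower than the wild type in the mutant at day 14 but above it in the day 18 libraries. The omega-type gene00323 stood at 12.6, 3.28 and 13.1 TPM in the mutant libraries and at 28.1 TPM in the wild type.

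Peroxidases in the narrow sense, most of them heme enzymes, were 14 genes, of which 11 were tested between the strains. As deposited 3 were higher and 1 lower, or 27.3% and 9.09%, beside 40.7% and 14% of all tested genes. After rescaling 1 was higher and 4 lower, beside 2281 higher and 2395 lower of all 9272 tested genes. Catalase-peroxidase (katG, gene09821), which both splits hydrogen peroxide and uses it to oxidise other compounds, stood at 129, 214 and 341 TPM in the mutant libraries and at 41.6 TPM in the wild type, a strain ratio of 3.00. Versatile peroxidase VPL1 (gene02133), named for a lignin-attacking enzyme of the mushroom Pleurotus eryngii, stood at 430 and 574 TPM in the mutant at day 18 at 19 °C and 25 °C, at 9.48 TPM in the mutant at day 14 and at 2.50 TPM in the wild type. The gap between the days was far wider than that between the strains, whose ratio of 1.58 was 0.94 after rescaling. Mitochondrial cytochrome c peroxidase (gene04572) stood at 26.1, 300.4 and 49.3 TPM in the mutant libraries and at 68.5 TPM in the wild type. The heme-binding peroxidase gene09169 was the lower one, at 14.3, 9.07 and 7.20 TPM in the mutant libraries and 17.3 TPM in the wild type. A dye-decolorizing peroxidase (gene01891) was listed at 0 in the wild type and stood at 3.09, 9.24 and 1.16 TPM in the mutant libraries. The 6 genes named for the dotB and stcC peroxidases of fungal toxin clusters did not exceed 5.90 TPM in any library, and that value was gene02116 in the wild type.

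Set against all mutant libraries at once, the wild type stood at least 2-fold under the lowest mutant library for 15 of 61 genes, or 24.6%, and at least 2-fold over the highest for 5, or 8.20%. The same held for 19.2% and 8.98% of 9508 genes in the whole table, and the mutant libraries share the 1 wild-type library and differ in day and temperature. After rescaling by the median ratio, 11 redox genes met the limit for a wild type under all mutant libraries and 12 for a wild type above them. The shares of all genes after that rescaling were not computed, so these counts cannot be set against the whole table. By library, 11, 13, 21 and 16 of the 61 genes were highest in the mutant at day 18 and 19 °C, at day 18 and 25 °C, at day 14 and in the wild type, or 18.0%, 21.3%, 34.4% and 26.2%, against 11.5%, 26.2%, 38.1% and 24.2% of all genes in that order of libraries. The 5 genes as deposited were peroxiredoxin-5 (gene00803), glutaredoxin (gene09125), thioredoxin-like 4A (gene06888), peroxiredoxin-like 2C (gene09357) and the omega-type transferase gene00323. Among the 15 were gene10272, gene02133, gene09821, gene01918, gene09783, gene02692, glutaredoxin-4 and glutaredoxin-7.

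The mutant at day 18 was next set at 19 °C against 25 °C, which addresses the fermentation temperature. At 19 °C the manganese superoxide dismutases, the Asp f3 peroxiredoxin and several glutathione S-transferases were higher, while the cell surface superoxide dismutase and cytochrome c peroxidase were more than 10-fold lower. Of 59 tested redox genes, 11 were higher at 19 °C and 5 lower, or 18.6% and 8.47%, while among all 9064 genes tested 10.9% were higher and 21.4% were lower. The median log2 ratio of the redox genes was 0.33, against -0.21 for all tested genes. After rescaling by the median ratio 15 were higher and 4 lower. Higher genes made up 68.8% of the redox calls as deposited and 78.9% after rescaling, against 33.7% and 45.4% for all genes. Gene lengths are not in the table, so whether length moved with these ratios was not tested.

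Both manganese superoxide dismutases were higher at 19 °C. For gene10272 the values were 2413 TPM at 19 °C, against 516 TPM at 25 °C, 4.68-fold apart, and for gene09218 they were 262 TPM at 19 °C and, at 25 °C, 130 TPM, 2.02-fold apart. The copper enzyme gene00563 stood at 11.4 TPM at 19 °C, against 147 TPM at 25 °C, a log2 ratio of -3.58. Cytochrome c peroxidase gene04572, a mitochondrial enzyme like the manganese dismutases, stood at 26.1 TPM at 19 °C, against 300.4 TPM at 25 °C, a log2 ratio of -3.47.

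Among 9 peroxiredoxins 1 gene was higher and 1 lower at 19 °C, or 11.1% each, beside 10.9% and 21.4% of all tested genes. The higher one was gene08267, at 4558 TPM at 19 °C, against 2263 TPM at 25 °C, just past the limit with a log2 ratio of 1.01. The lower one was the PRX1-type gene09890, at 571 TPM at 19 °C, against 1246 TPM at 25 °C, whose ratio of -1.12 became -0.93 after rescaling. No thioredoxin passed the limit. The chief thioredoxin gene06997 stood at 1746 TPM at 19 °C, against 3161 TPM at 25 °C, a log2 ratio of -0.86, and its reductase at 379 TPM at 19 °C and, at 25 °C, 489 TPM. All 4 glutaredoxins also lay within 2-fold as deposited, and after rescaling gene09125 and the mitochondrial gene06807 were higher at 19 °C, with log2 ratios of 1.13 and 1.06.

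Among the 17 glutathione S-transferases 5 were higher at 19 °C and 0 lower, as deposited and after rescaling. That is 29.4% higher, beside 10.9% higher and 21.4% lower of all tested genes as deposited. After rescaling 1318 of all 9064 tested genes were higher and 1584 lower. The ustS-type gene02019 stood at 55.1 TPM at 19 °C, against 7.35 TPM at 25 °C, 7.50-fold apart. The gene06245, annotated elsewhere as elongation factor 1-gamma, stood at 293 TPM at 19 °C, against 74.5 TPM at 25 °C, and the gedE-type gene07969 at 94.2 TPM at 19 °C and, at 25 °C, 24.7 TPM. The omega-type gene00323 stood at 12.6 TPM at 19 °C, against 3.28 TPM at 25 °C. In the glutathione class, the formaldehyde dehydrogenase gene04230 was higher at 19 °C, at 86.1 TPM at 19 °C and, at 25 °C, 29.6 TPM, and so was hydroxyacylglutathione hydrolase, at 111 TPM at 19 °C and, at 25 °C, 52.1 TPM. Glutathione reductase leaned the other way, at 253 TPM at 19 °C, against 428 TPM at 25 °C, within 2-fold. Among 10 tested peroxidases 1 was higher at 19 °C and 3 lower, as deposited and after rescaling. That is 10% and 30%, beside 10.9% and 21.4% of all tested genes as deposited. The higher one was the catalase-related gene06597, at 127 TPM at 19 °C, against 46.5 TPM at 25 °C. The lower ones were cytochrome c peroxidase and genes that stayed under 10 TPM at both temperatures. Versatile peroxidase lay within 2-fold, at 430 TPM at 19 °C and, at 25 °C, 574 TPM.

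The day 18 libraries of the mutant were last set against its day 14 library. They share that 1 library, and since day 14 has no stated temperature, day and temperature cannot be told apart in them. Versatile peroxidase VPL1 (gene02133) was 45.3-fold higher at day 18 and 19 °C and 60.6-fold higher at day 18 and 25 °C than at day 14. It was the largest ratio of the redox genes in either comparison, at 5.36 and 5.78 on the log2 scale. Its rank among all genes was 400 and 320 at day 18 and 6590 at day 14.

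At day 18 and 25 °C, 10 of 61 redox genes were higher and 20 lower than at day 14, or 16.4% and 32.8%, against 14.1% and 24.4% of 9236 genes in the whole table. After rescaling 10 were higher and 13 lower, beside 1806 higher and 1365 lower of all 9236 tested genes. Most of the lower genes belonged to a pair of classes. In glutathione synthesis and turnover 6 of 9 were lower and 1 higher, and among glutathione S-transferases 10 of 17 were lower and 2 higher, with 5 lower in each class after rescaling. S-formylglutathione hydrolase stood at 200.3 TPM at day 18 and 25 °C and at 816 TPM at day 14, and glyoxalase I at 61.8 TPM at day 18 and 25 °C and 177 TPM at day 14. The higher member was glutathione reductase, at 428 TPM at day 18 and 25 °C and 106 TPM at day 14. The manganese superoxide dismutase gene10272 was 8.94-fold lower at day 18 and 25 °C. Higher as well were the thioredoxin gene06997, at 3161 TPM at day 18 and 25 °C and 799 TPM at day 14, its reductase gene07541, at 489 TPM at day 18 and 25 °C and 220 TPM at day 14, and the peroxiredoxin gene01918, at 991 TPM at day 18 and 25 °C and 451 TPM at day 14. Cytochrome c peroxidase stood at 300.4 TPM at day 18 and 25 °C and at 49.3 TPM at day 14. Of the 8 thioredoxins 2 were higher and 0 lower, and of 11 tested heme and other peroxidases 4 were higher and 0 lower. The higher shares were 25% and 36.4%, beside 14.1% higher and 24.4% lower of all tested genes. These class counts were the same after rescaling, while the counts of all tested genes changed as given above.

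At day 18 and 19 °C, 8 of 61 redox genes were higher and 10 lower than at day 14, or 13.1% and 16.4%, against 7.97% and 27.9% of 9119 genes in the whole table. After rescaling 19 were higher and 2 lower. Over all tested genes the same rescaling gave 1408 higher and 970 lower, against 727 higher and 2545 lower as deposited. Glutathione reductase was again higher, at 253 TPM at day 18 and 19 °C and 106 TPM at day 14, as was the thioredoxin gene06997, at 1746 TPM at day 18 and 19 °C and 799 TPM at day 14. The catalase-related peroxidase gene06597 was 11.2-fold higher, at 127 TPM at day 18 and 19 °C and 11.3 TPM at day 14. The cell surface superoxide dismutase gene00563 was 9.27-fold lower, at 11.4 TPM at day 18 and 19 °C and 105 TPM at day 14. For gene10272 the values were 2413 TPM at day 18 and 19 °C and 4608 TPM at day 14, a log2 ratio of -0.93.

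Genes that feed or call on the redox system but are not among the 64 were described by 4 lists. The list of NADPH supply had 5 of 12 genes higher and 1 lower in the mutant at day 14, and 0 higher and 2 lower at 19 °C. By strain that is 41.7% and 8.33%, beside 40.7% and 14% of all tested genes, and by temperature 0% and 16.7%, beside 10.9% and 21.4%. NADP-dependent malic enzyme (gene00473) stood at 246, 321 and 332 TPM in the mutant libraries and at 4.64 TPM in the wild type, 71.6-fold apart at day 14. Glucose-6-phosphate dehydrogenase (gene05216), the entry to the pentose phosphate pathway, stood at 471, 455 and 728 TPM in the mutant libraries and at 249 TPM in the wild type. The lowest strain ratio was that of a transaldolase (gene05701), at 263, 181 and 109 TPM in the mutant libraries and 701 TPM in the wild type. By temperature the ends of this list were the same transaldolase, at 263 TPM at 19 °C, against 181 TPM at 25 °C, and a 6-phosphogluconolactonase (gene05679), at 4.69 TPM at 19 °C and, at 25 °C, 21.1 TPM.

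In the list of cysteine and glutamyl-cysteine supply, 5 of 14 genes were higher and 0 lower in the mutant at day 14, and after rescaling 2 were higher and 5 lower. As deposited that is 35.7% higher, beside 40.7% of all tested genes. The pattern for cysteine synthase also caught homocysteine synthase (gene07510), which is named for another product. That gene stood at 56.8, 63.4 and 177 TPM in the mutant libraries and at 3.65 TPM in the wild type. Cystathionine beta-synthase (gene04664) had the lowest strain ratio of the list, -0.86, within 2-fold. Glutamate-cysteine ligase (gene00111), the first and often limiting enzyme of glutathione synthesis, stood at 122, 197 and 70.2 TPM in the mutant libraries and at 78.9 TPM in the wild type. At 19 °C 0 genes of the list were higher and 4 lower, or 28.6%, beside 21.4% of all tested genes lower, the lowest being phosphoadenosine phosphosulfate reductase (gene02841) of sulfate assimilation, at 64.3 TPM at 19 °C, against 281 TPM at 25 °C. The highest was cysteine synthase (gene10487), at 90.4 TPM at 19 °C and, at 25 °C, 69.4 TPM.

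The list of repair enzymes and regulators held 5 genes, of which the pattern also caught an unrelated protein kinase (gene01132), with 2 higher and 1 lower in the mutant at day 14, or 40% and 20%, beside 40.7% and 14% of all tested genes. The AP-1-like transcription factor yap1 (gene05893), the chief regulator of the peroxide response in yeasts, stood at 163, 368 and 145 TPM in the mutant libraries and at 37.1 TPM in the wild type, 3.89-fold apart at day 14. SKN7 (gene00804), which acts beside it in yeast, stood at 14.6, 44.1 and 48.5 TPM in the mutant libraries and 42.8 TPM in the wild type. The lower gene was a methionine sulfoxide reductase (gene03098), which repairs oxidised methionine, at 837, 595 and 297 TPM in the mutant libraries and 2556 TPM in the wild type. At 19 °C 0 of the 5 were higher and 3 lower than at 25 °C, or 0% and 60%, beside 10.9% and 21.4% of all tested genes. The lower ones were yap1, SKN7 and the unrelated kinase gene01132, which had the lowest ratio. After rescaling yap1 was at -0.98, within 2-fold.

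The list of sources of reactive oxygen also caught alternative oxidase (gene00570), which is not itself such a source. The list had 3 of 8 genes higher and 1 lower in the mutant at day 14, or 37.5% and 12.5%, beside 40.7% and 14% of all tested genes. The sum of the list was 2131, 1216 and 2068 TPM in the mutant libraries and 113 TPM in the wild type. Alternative oxidase made up 60.4 TPM of the wild-type sum. The largest part in the mutant libraries was alcohol oxidase 1 (gene00568), which makes hydrogen peroxide and an aldehyde, at 1637, 742 and 1845 TPM in the mutant libraries and 7.01 TPM in the wild type. Alternative oxidase (gene00570), which takes electrons off the respiratory chain, stood at 386, 356 and 63.0 TPM in the mutant libraries and at 60.4 TPM in the wild type, high at day 18 and alike between the strains at day 14. NADPH oxidase (gene06756), whose product is superoxide, stood at 51.9 TPM at 19 °C, against 9.67 TPM at 25 °C, the highest temperature ratio of the list at 2.31, and acyl-coenzyme A oxidase (gene04648) had the lowest, at 44.8 TPM at 19 °C and, at 25 °C, 96.9 TPM.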

How the data were processed

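RNA came from mycelium, and libraries were built with a SMARTER mRNA-Seq kit according to the labels' protocols. The authors deposited 1 table of TPM per gene for the 4 libraries, given to 2 decimals, in which read depth is lost. No source used here gives the aligner, counter, genome build or annotation. Columns were matched to samples by library name and groups taken from the titles.

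Log2 ratios of TPM plus a pseudocount of 1 were computed with Python 3.11.15, pandas 2.3.3 and numpy 2.4.6 where either library reached 1 TPM, and called at 2-fold. With 1 library per group no test was run. The steps were tested on simulated data. No fold was given against a value listed at 0. Of the redox genes, 0 had values identical to another gene.

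Members and lists were chosen with earlier results of these data known. The genes named were all superoxide dismutases and peroxiredoxins, and in each other class, among those at 10 TPM or more, the 3 of highest level and the extreme ratios by strain and temperature; of each supporting list, the extremes. The genes gene00610, gene01329, gene01891, gene02116, gene02526, gene05363, gene05467, gene07969, gene09789, glucose-6-phosphate dehydrogenase, glutamate-cysteine ligase, yap1, SKN7, alternative oxidase and wetA were added after values were seen. The alternatives were rescaling by the median ratio or without the 20 highest genes, a 4-fold threshold, a stricter filter of 10 TPM or none, and pseudocounts of 0.1 and 5. The values of 1 named gene are not reported here.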

Additional observations from a re-analysis of the deposited data

Results flagged for a closer look

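The glutathione S-transferase gene02019 moved in opposite directions between day 18 and day 14 of the mutant at the 2 temperatures, past 2-fold in each. Its log2 ratio of TPM plus 1 over day 14 was 1.36 at 19 °C and -1.39 at 25 °C, from values of 55.1 TPM at day 18 and 19 °C, 7.35 TPM at day 18 and 25 °C and 20.9 TPM at day 14. Both ratios rest on the same day 14 library and on 1 library each, and the difference between them was not tested.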

How the results depend on the processing

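Each group had 1 library, so no replicate could be left out and no paired analysis was possible because the groups compared share no more than 1 replicate number. Of 813 values of named genes under the alternatives, 731 kept their side of the 2-fold limit within 1.5-fold of the value, 82 moved and 0 changed direction among called genes. The pooled count is no measure of robustness. Of the kept values, 157 came from the filter of 10 TPM, which cannot alter the ratio of a gene. Most moves came from rescaling by the median ratio, under which 64 values moved and 100 were kept. Rescaling by the median ratio gave 17 higher and 19 lower genes in the mutant at day 14 (27 and 8 as deposited), 19 and 2 at day 18 and 19 °C over day 14 (8 and 10), 13 lower at day 18 and 25 °C over day 14 (20), and 12 genes with the wild type above all mutant libraries (5). Medians changed sign under it for all redox genes, to -0.18 for strain and 0.13 for day 18 at 19 °C over day 14. So did those of peroxiredoxins, to -0.039 and 0.28 in these comparisons, of thioredoxins, to 0.46 at 19 °C and 0.19 at 25 °C over day 14, and of glutaredoxins, to 0.28 at 25 °C over day 14. With no filter the thioredoxin median by temperature was -0.0046, and with a filter of 10 TPM the peroxiredoxin median at day 18 and 25 °C over day 14 was -0.064. A 4-fold threshold left 14 higher and 3 lower for strain, 2 and 2 for temperature, 4 and 4 for day 18 at 25 °C over day 14, and 2 and 1 for day 18 at 19 °C over day 14. A pseudocount of 5 and a filter of 10 TPM each gave 3 lower for temperature (5). Without the glutathione S-transferases, an alternative added after the data were seen, 5 were lower for strain, 6 higher for temperature, 4 higher at day 18 and 19 °C over day 14, and 10 lower at day 18 and 25 °C over day 14. Leaving out the 6 genes annotated as another protein, also added later, moved no count by more than 1.5-fold.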

Other observations

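Genes outside the rule, chosen after values were seen, held further members of the same folds. In all, 56 other genes carry a word of the rule in another annotation column. Directly next in number to the manganese superoxide dismutase gene10272, the uncharacterised gene10271 stood at 2784, 406 and 2582 TPM in the mutant at day 18 and 19 °C, at day 18 and 25 °C and at day 14, and at 297 TPM in the wild type, while gene10273 on the other side stood at 117, 45.8 and 183 TPM in the mutant libraries and 51.6 TPM in the wild type. Whether gene numbers follow the genome is not given. Next to versatile peroxidase gene02133, gene02132 stood at 1.83, 5.11 and 0.93 TPM in the mutant libraries and at 5.04 TPM in the wild type, and gene02134 at 45.4, 168 and 51.9 TPM in the mutant libraries and at 168 TPM in the wild type.

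S-nitrosoglutathione reductase by its Nr hit (gene09146), which shares the glutathione route of formaldehyde oxidation with S-formylglutathione hydrolase, stood at 593, 530 and 946 TPM in the mutant libraries and at 999 TPM in the wild type, a strain ratio of -0.08. A psi-producing oxygenase with a heme peroxidase domain (gene06203), which makes signalling oxylipins in Aspergillus, stood at 56.0, 238 and 29.97 TPM in the mutant libraries and at 1.45 TPM in the wild type. A thioredoxin-fold DSBA-like gene (gene00265) stood at 357, 345 and 263 TPM in the mutant libraries and at 1018 TPM in the wild type.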
